A study of Mus musculus with 12 samples.

Results

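The genes described here are 10 mouse genes of blood vessel growth, read in 2 fibroblast lines given a Hedgehog ligand. They are the ligands Pgf, Vegfa, Vegfb, Vegfc, Angpt1 and Angpt2, the receptors Flt1, Nrp1 and Tek, and the transcription factor Sox18, out of 24346 genes with values. They were taken by symbol from the expression table. The set was drawn up by function with the responses to the ligand in these samples already known, so the changes against control are given as a description without p-values. The difference of these responses between the lines is made of the same values, so its p-values below are a description too.

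NIH-3T3 is a fibroblast line from NIH/Swiss mouse embryos, and MLg is a fibroblast line from the lung of newborn ddY mice. Each was kept for 48 h in medium with 0.5% serum. NIH-3T3 SHHN and MLg SHHN received 1 µg/ml recombinant SHHN, the amino-terminal signalling fragment of Sonic hedgehog, and NIH-3T3 control and MLg control received vehicle. There were 3 libraries in each of the 4 groups, which are numbered 1 to 3 in every list of values below, and each line is a single cell line. The labels do not say that the replicates were separate cultures, so the tests measure only the spread between these libraries. Values are FPKM as deposited, that is fragments scaled to transcript length and library size, so levels of different genes can be set side by side.

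Vascular endothelial growth factors are secreted dimers. Vegfa signals through the receptor tyrosine kinases Flt1 and Kdr, Pgf and Vegfb bind Flt1 but not Kdr, and Vegfc binds mainly Flt4, the receptor of lymphatic endothelium. Neuropilins such as Nrp1 bind VEGF ligands and class 3 semaphorins as coreceptors without a kinase domain. Angpt1 activates the receptor Tek (Tie2) on endothelial cells, and Angpt2 often opposes it. Sox18, with Sox7 and Sox17, forms the SoxF group of transcription factors of endothelial cells. Fibroblasts are known as sources of such ligands rather than as bearers of most of the receptors.

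As a check of the ligand, Gli1, the transcription factor induced by Hedgehog signalling, rose in both lines. It averaged 147 ± 6.69 FPKM in NIH-3T3 SHHN and 0.131 ± 0.0478 FPKM in NIH-3T3 control (SD, n = 3 each). In MLg it averaged 120 ± 7.69 FPKM with SHHN and 0.583 ± 0.280 FPKM without. Libraries held 13401 to 14793 genes above 0, and their depth is unknown. NIH-3T3 control replicate 2 stood farthest from its group, with a mean absolute deviation of 0.223 on the log2 scale against 0.0956 to 0.167 in the other 11 libraries. NIH-3T3 SHHN replicate 1 stood apart for several genes named below. Changes are log2 fold changes of FPKM + 0.5 with the standard error (SE) of a limma fit to all 12 libraries, a scale that understates changes of low genes. A gene is said to have risen or fallen where its adjusted p in that fit, over the 12379 genes that passed a filter on low values, was under 0.05. All 10 genes passed. Flt1 did so only through the NIH-3T3 control libraries, Angpt2 only through MLg libraries, and Pgf and Sox18 only through SHHN libraries. These are the libraries in which each of these genes is high.

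In NIH-3T3, Pgf, Vegfa, Angpt1, Nrp1 and Sox18 rose with SHHN and Flt1 fell, which is 6 of the 10 genes, where 31.4% of all genes tested passed (16.6% higher and 14.8% lower). In MLg, Pgf, Nrp1, Tek and Sox18 rose and Vegfc fell, which is 5 of 10, where 22.8% of all genes passed (12.8% higher and 10.0% lower). Since the genes were listed with these responses known, nothing is read from those counts. The median change over the genes tested was -0.01 in NIH-3T3 and -0.0026 in MLg. Pgf, Nrp1 and Sox18 rose in both lines.

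**Figure D1:**
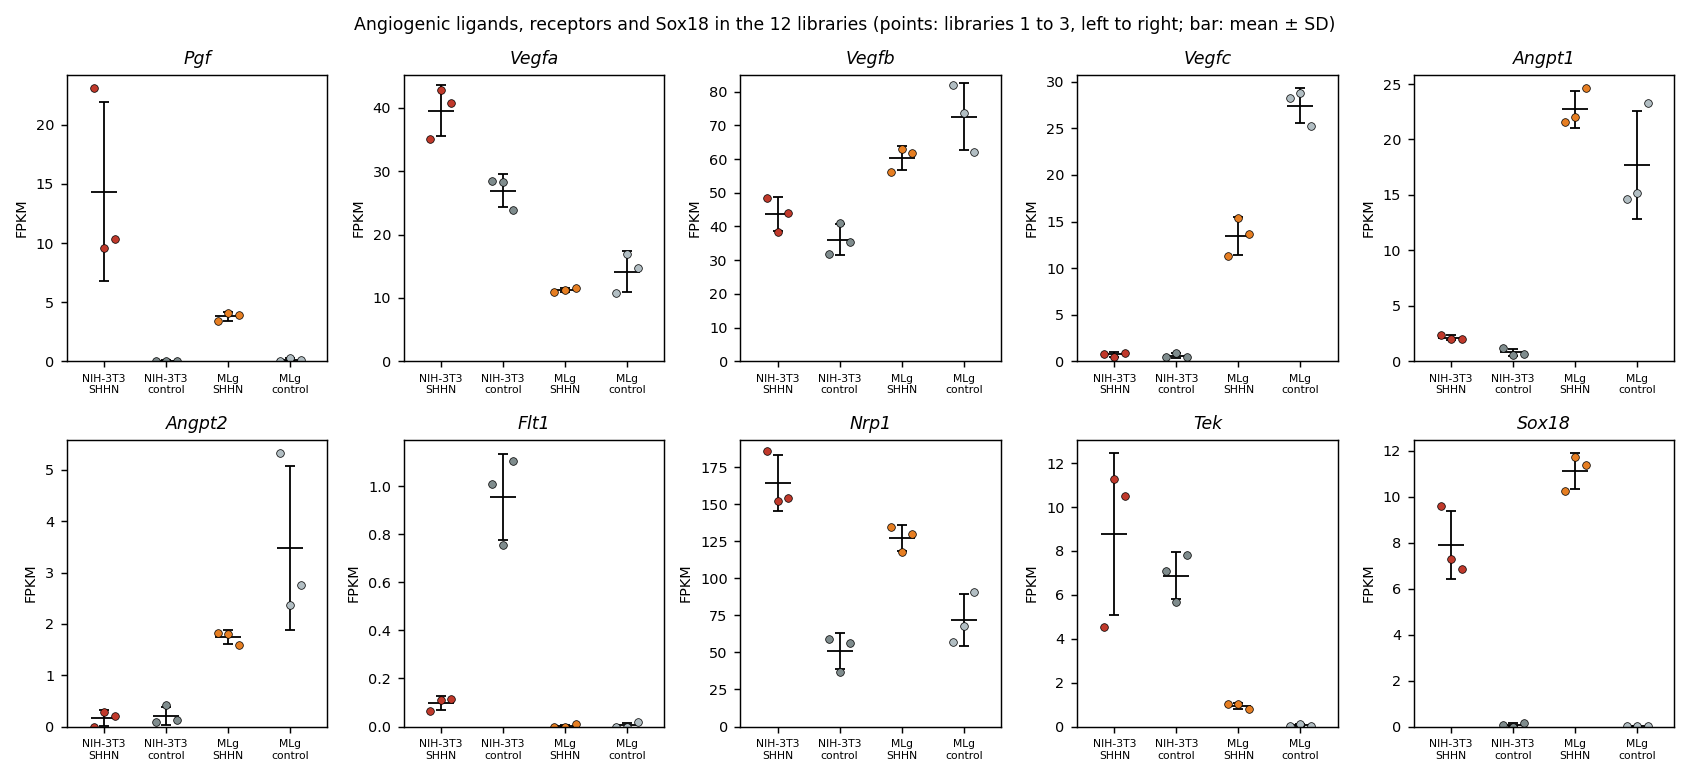
FPKM of the 10 genes in each library (points, libraries 1 to 3 from left to right) with the group mean and SD (bars), each panel on its own linear axis from 0. Pgf and Sox18 are near 0 in the control libraries and between 3.39 and 23.1 FPKM in the SHHN libraries, while Flt1 is near 1 FPKM in NIH-3T3 control and lower elsewhere.

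Pgf (placental growth factor, chr12:85166635-85177790, minus strand; this and all gene positions are GENCODE M21 on GRCm38, which is mm10) was near 0 without ligand. It stood at 23.1, 9.60 and 10.4 FPKM in NIH-3T3 SHHN, against 0, 0.0579 and 0.0558 FPKM in NIH-3T3 control. MLg SHHN held 3.39, 4.06 and 3.92 FPKM, against 0, 0.287 and 0.130 FPKM in MLg control. Every SHHN library lay above every control library of its line, and NIH-3T3 SHHN replicate 1 was the highest. The log2 fold change was 4.68 ± 0.27 in NIH-3T3 and 2.77 ± 0.27 in MLg. The rise was larger in NIH-3T3, with a difference between the lines of 1.91 ± 0.38 (SE). The direction of that difference was the same in every alternative fit run, including those that left out a library. Pgf passed the filter only through SHHN libraries, where it is high, so no p is given for it. In these bulk libraries, a change in the share of cells that carry a gene and a change in RNA per cell cannot be told apart.

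Vegfa (chr17:46016993-46032369, minus strand), the main ligand of vessel sprouting, moved far less. NIH-3T3 SHHN had 35.1, 42.9 and 40.8 FPKM, against 28.4, 28.4 and 23.9 FPKM in NIH-3T3 control. The groups did not overlap, and the log2 fold change was 0.55 ± 0.15. The rise no longer passed without NIH-3T3 SHHN replicate 2 (0.49) or without NIH-3T3 control replicate 3 (0.47). In MLg SHHN the values were 10.98, 11.3 and 11.5 FPKM, against 10.7, 17.0 and 14.8 FPKM in MLg control, which spans them. The log2 fold change there was -0.29 ± 0.15 and did not pass, though it did without MLg control replicate 1 (-0.48). The lines differed by 0.84 ± 0.21 (limma, adjusted p = 0.0197). This difference missed the threshold without SHHN replicate 2 (0.78) or control replicate 3 (0.76) of NIH-3T3, or control replicate 2 (0.70) of MLg.

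Vegfb (chr19:6982473-6987651, minus strand), a Flt1 ligand linked to metabolic tissues, was abundant throughout. NIH-3T3 SHHN averaged 43.7 ± 5.05 FPKM and NIH-3T3 control 36.1 ± 4.62 FPKM, while MLg SHHN averaged 60.4 ± 3.64 FPKM and MLg control 72.6 ± 9.99 FPKM (SD, n = 3 each). SHHN and control libraries overlapped in both lines. The 95% interval of the log2 fold change ran from -0.01 to 0.56 in NIH-3T3 and from -0.54 to 0.03 in MLg. The difference between the lines was 0.53 ± 0.19 (limma, adjusted p = 0.0823), and it passed without NIH-3T3 control replicate 2 (0.63) or MLg control replicate 3 (0.64).

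Vegfc (chr8:54077606-54187096, plus strand), the lymphatic growth factor, was a gene of the lung line. MLg SHHN had 11.3, 15.4 and 13.6 FPKM, against 28.3, 28.8 and 25.3 FPKM in MLg control. It fell by 1.01 ± 0.19 on the log2 scale, with no overlap between the groups. In NIH-3T3 it stayed low, at 0.809, 0.459 and 0.919 FPKM with SHHN and 0.453, 0.916 and 0.477 FPKM without. The log2 fold change in NIH-3T3 was 0.14, with a 95% interval from -0.26 to 0.55. The lines differed by 1.16 ± 0.27 (limma, adjusted p = 0.0122), which passed in every alternative fit run.

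**Figure D2:**
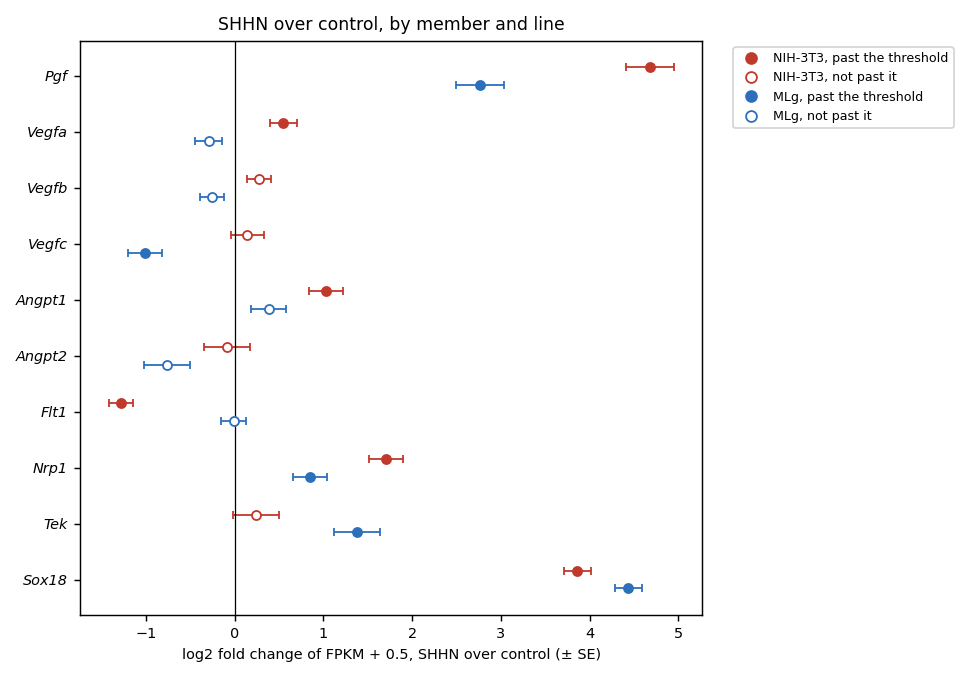
Log2 fold change of FPKM + 0.5, SHHN over control, with SE bars for each of the 10 genes in NIH-3T3 (red) and MLg (blue). Filled points passed the threshold of 0.05 on limma's adjusted p over all genes, and open points did not. Sox18 and Pgf lie farthest right in both lines, Flt1 is left of 0 in NIH-3T3 and Vegfc in MLg.

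Angpt1 (chr15:42424723-42676977, minus strand), the agonist of Tek, had 2.37, 2.003 and 2.04 FPKM in NIH-3T3 SHHN, against 1.19, 0.593 and 0.663 FPKM in NIH-3T3 control. It rose in that line by 1.03 ± 0.19 on the log2 scale, with no overlap. MLg held far more, 21.6, 22.0 and 24.7 FPKM with SHHN and 14.6, 15.2 and 23.3 FPKM without. MLg control replicate 3 lay within the range of the SHHN libraries, the log2 fold change was 0.38 ± 0.19, and it passed only where that library was left out (0.59). The difference between the lines was 0.65 ± 0.27 (limma, adjusted p = 0.144). It passed without NIH-3T3 control replicate 1 (0.84).

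Angpt2 (chr8:18690263-18741562, minus strand) had 1.83, 1.81 and 1.59 FPKM in MLg SHHN, against 5.32, 2.37 and 2.76 FPKM in MLg control. The groups did not overlap, but the log2 fold change of -0.76 ± 0.26 missed the threshold. With the replicate number as a block it passed at the same size, -0.76. It also passed with a pseudocount of 1 FPKM (-0.65), quantile normalization (-0.82) or median-ratio scaling (-0.79), without MLg control replicate 2 (-0.96), and where either of 2 NIH-3T3 libraries was left out (SHHN replicate 1 or control replicate 2), which leaves its value as it is. NIH-3T3 libraries held 0 to 0.288 FPKM with SHHN and 0.0874 to 0.411 FPKM without, all under the 0.5 FPKM of the filter. The sign of the change in NIH-3T3, -0.09 ± 0.26, turned without SHHN replicate 1 or without control replicate 2 (0.11 each). The difference between the lines was 0.67 ± 0.37 (SE) and did not pass. Angpt2 passed the filter only through MLg libraries, where it is high, so no p is given.

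Among the receptors, Nrp1 (chr8:128358604-128503363, plus strand) was the most abundant of the 10 genes in NIH-3T3 SHHN, MLg SHHN and NIH-3T3 control by mean FPKM. It stood at 186, 152 and 154 FPKM in NIH-3T3 SHHN, against 59.1, 37.0 and 56.5 FPKM in NIH-3T3 control. MLg SHHN had 135, 118 and 130 FPKM, against 56.8, 67.8 and 91.1 FPKM in MLg control. It rose in both lines without overlap, by 1.71 ± 0.19 in NIH-3T3 and 0.85 ± 0.19 in MLg. The difference of 0.86 ± 0.27 lay at the threshold (limma, adjusted p = 0.0503) and passed at the same size with the replicate number as a block (adjusted p = 0.0354). That block also joined the NIH-3T3 libraries by number, which their correlations did not bear out. The difference of Nrp1 also passed with a pseudocount of 1 FPKM (0.85), a filter of 1 FPKM (0.86), quantile normalization (0.89) and median-ratio scaling (0.89). Without MLg control replicate 1 it was 1.01 and without NIH-3T3 control replicate 1 it was 0.98, and both passed.

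Tek (chr4:94739289-94874976, plus strand) separated the lines. MLg SHHN had 1.03, 1.01 and 0.788 FPKM, against 0.0261, 0.108 and 0.0298 FPKM in MLg control, a rise of 1.38 ± 0.26 on the log2 scale. NIH-3T3 held it with or without ligand, at 4.54, 11.3 and 10.5 FPKM in SHHN libraries and 7.10, 5.70 and 7.80 FPKM in control libraries. SHHN replicate 1 lay below all 3 controls and the other SHHN libraries above them. The log2 fold change in NIH-3T3 was 0.25 (95% interval -0.31 to 0.80), and without that library it was 0.64 and passed. The difference between the lines was -1.13 ± 0.37 (limma, adjusted p = 0.0585). It passed without NIH-3T3 SHHN replicate 1 (-0.74), replicate 2 (-1.35) or replicate 3 (-1.30), without NIH-3T3 control replicate 2 (-1.25), with a pseudocount of 0.1 FPKM (-2.53), quantile normalization (-1.15) and median-ratio scaling (-1.13).

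Flt1 (VEGF receptor 1, chr5:147561604-147726011, minus strand) was low everywhere. NIH-3T3 SHHN had 0.0653, 0.111 and 0.116 FPKM, against 1.01, 0.757 and 1.10 FPKM in NIH-3T3 control. It fell by 1.28 ± 0.14 on the log2 scale without overlap. In MLg it was listed at 0 in 2 libraries of each group, with 0.0085 FPKM in the third SHHN library and 0.0185 FPKM in the third control library. Flt1 passed the filter only through NIH-3T3 control, the group in which it is high, and with a filter of 1 FPKM it was not tested. The difference between the lines, -1.27 ± 0.20 (SE), is therefore given as a description with no p.

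Sox18 (chr2:181669836-181671640, minus strand) showed the same pattern in both lines. NIH-3T3 SHHN had 9.59, 7.30 and 6.84 FPKM, against 0.0885, 0 and 0.139 FPKM in NIH-3T3 control. MLg SHHN had 10.3, 11.7 and 11.4 FPKM, against 0.0351, 0.0419 and 0.0301 FPKM in MLg control. The gene was thus near 0 in all 6 control libraries and at 6.84 FPKM or more in all 6 SHHN libraries. The log2 fold change was 3.86 ± 0.15 in NIH-3T3 and 4.44 ± 0.15 in MLg. Sox18 passed the filter only through SHHN libraries, where it is high, so no p is given for the difference. That difference was -0.57 ± 0.21 (95% interval -1.04 to -0.11) and did not pass the threshold. Leaving out SHHN replicate 1 of NIH-3T3 (-0.71) or its control replicate 2 (-0.67) let it pass.

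Levels near the pseudocount make the fold changes of Pgf, Sox18, Tek and Flt1 depend on it, since Pgf, Sox18 and, in MLg, Tek were low in controls and Flt1 was low in NIH-3T3 SHHN. With 0.1 FPKM in place of 0.5, Pgf had a log2 fold change of 6.62 in NIH-3T3 and 4.23 in MLg, and Sox18 of 5.58 in NIH-3T3 and 6.37 in MLg. Tek in MLg reached 2.78 and Flt1 in NIH-3T3 -2.42. With 1 FPKM, Pgf had 3.78 in NIH-3T3 and 2.08 in MLg, and Sox18 3.04 in NIH-3T3 and 3.55 in MLg. Every one of these values passed.

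Promoter sequence was matched by symbol in RefSeq (GRCm38.p6) as windows from 250 bases before to 50 bases after a gene start. Windows were found for 7 of the 10 genes, 9 in all, with 2 each for Pgf and Vegfa. No window was found under the symbols Sox18, Angpt1 and Angpt2, so their promoters were not searched. Gli factors, which act at the end of the Hedgehog pathway, are known to bind a motif with the letters GACCACCCA. This motif was sought on both strands and occurred in 0 of the 9 windows, against 83 of 32851 windows of all genes (0.253%). Its core ACCACCC, which the full motif contains, occurred in 1 of the 9 windows, that of Vegfc, against 4.61% of all windows. A match is only a run of letters, and no match in a window says nothing of the factor. The 250 bases before the start are shown for the receptor that rose in both lines, the receptor that rose in MLg and the ligand that fell in MLg. Each is written 5′ to 3′ on the strand of its gene, with the core in capitals where present. They cover chr8:128358823-128359072 for Nrp1, chr4:94739039-94739288 for Tek and chr8:54077282-54077531 for Vegfc, all on the plus strand.
Nrp1: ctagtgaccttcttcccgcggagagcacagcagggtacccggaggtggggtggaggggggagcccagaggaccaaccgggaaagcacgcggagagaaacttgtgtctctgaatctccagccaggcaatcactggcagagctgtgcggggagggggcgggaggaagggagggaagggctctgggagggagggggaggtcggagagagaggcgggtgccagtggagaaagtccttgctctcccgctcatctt
Tek: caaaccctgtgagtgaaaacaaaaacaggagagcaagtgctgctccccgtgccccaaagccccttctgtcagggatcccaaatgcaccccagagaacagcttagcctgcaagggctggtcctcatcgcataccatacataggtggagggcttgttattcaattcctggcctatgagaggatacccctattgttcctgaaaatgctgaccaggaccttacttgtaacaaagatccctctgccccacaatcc
Vegfc: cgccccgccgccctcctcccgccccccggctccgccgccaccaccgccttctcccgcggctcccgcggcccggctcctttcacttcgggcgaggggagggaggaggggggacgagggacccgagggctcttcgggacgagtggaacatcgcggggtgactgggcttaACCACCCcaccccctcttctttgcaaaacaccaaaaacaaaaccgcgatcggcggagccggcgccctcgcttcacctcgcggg
The core in Vegfc begins 83 bases before the RefSeq start.

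The lines were then set against each other without ligand and under SHHN. These comparisons share libraries with those above. Without ligand, NIH-3T3 exceeded MLg in Vegfa and Tek and lay below it in Vegfb, Vegfc, Angpt1 and Nrp1. Over all genes tested, 50.1% passed (24.4% higher and 25.7% lower). Flt1 and Angpt2 are left out of this list, since each passed the filter only through libraries in which it is high. Tek was 3.72 ± 0.26 higher on the log2 scale in NIH-3T3 control than in MLg control (limma, adjusted p = 4.51e-08). Vegfc was -4.67 ± 0.19 (adjusted p = 1.70e-10) and Angpt1 -3.79 ± 0.19 (adjusted p = 1.83e-09) in the same limma contrast. Angpt2 was -2.45 ± 0.26. It passed the filter only through the MLg libraries, where it is high, so no p is given for it. Vegfa was 0.92 ± 0.15 higher (adjusted p = 1.84e-04) and Vegfb -0.996 ± 0.13 (adjusted p = 2.92e-05). Nrp1 was -0.50 ± 0.19 (adjusted p = 0.0427), a call lost when any of 8 of the 12 libraries was left out, with -0.29 without NIH-3T3 control replicate 2 and -0.31 without MLg control replicate 3. Pgf and Sox18, near 0 in both control groups, did not pass.

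Under SHHN, NIH-3T3 exceeded MLg in Pgf, Vegfa and Tek and lay below it in Vegfb, Vegfc, Angpt1 and Sox18. Over all genes tested, 46.8% passed (22.1% higher and 24.8% lower). Angpt2 is left out of this list too, since it passed the filter only through MLg libraries. Pgf was 1.68 ± 0.27 higher on the log2 scale in NIH-3T3 SHHN than in MLg SHHN (limma, adjusted p = 1.75e-04), and Vegfa 1.76 ± 0.15 higher (adjusted p = 4.59e-07). Sox18 was -0.48 ± 0.15 (adjusted p = 0.0197), a call lost with a pseudocount of 0.1 and without NIH-3T3 SHHN replicate 2 (-0.43) or 3 (-0.39) or MLg SHHN replicate 2 (-0.44) or 3 (-0.46). Vegfb was -0.47 ± 0.13 (adjusted p = 0.0111), a call lost without NIH-3T3 SHHN replicate 2 (-0.38). Nrp1 and Flt1 did not pass, though Flt1 did with no filter (0.25) and with a pseudocount of 0.1 FPKM (0.93). Differences of the response itself passed as higher in NIH-3T3 for Vegfa and Vegfc, while Tek, with a lower estimate, did not pass. Over all genes tested, 13.4% passed that contrast (7.48% higher and 5.95% lower). Pgf, Sox18, Flt1 and Angpt2 are left out here, since each passed the filter only through libraries in which it is high.

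By level, the order of mean FPKM in NIH-3T3 SHHN was Nrp1, Vegfb, Vegfa, Pgf, Tek, Sox18, Angpt1, Vegfc, Angpt2 and Flt1. The libraries of Vegfb and Vegfa overlapped there, as did those of Pgf with Tek, Tek with Sox18 and Angpt2 with Flt1. There the libraries of no other neighbours overlapped. In NIH-3T3 control the order was Nrp1, Vegfb, Vegfa, Tek, Flt1, Angpt1, Vegfc, Angpt2, Sox18 and Pgf, with overlap between Nrp1 and Vegfb, from Flt1 to Vegfc, and from Angpt2 to Pgf. In MLg SHHN it was Nrp1, Vegfb, Angpt1, Vegfc, Vegfa, Sox18, Pgf, Angpt2, Tek and Flt1, with overlap from Vegfc to Sox18. MLg control ran Vegfb, Nrp1, Vegfc, Angpt1, Vegfa, Angpt2, Pgf, Tek, Sox18 and Flt1, with overlap between Vegfb and Nrp1, between Angpt1 and Vegfa, and from Pgf to Sox18. Pgf was the fourth in NIH-3T3 SHHN and the last in NIH-3T3 control.

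The other genes of the pathway were read from a list of 20 partners, of which 13 were tested. This list and those further below were chosen by function with earlier results of these data known. Their changes against control are therefore given as a description. In NIH-3T3 SHHN 3 rose and 7 fell, with a median log2 fold change of -0.70. In MLg 2 rose and 4 fell, with a median of -0.34. Over all genes tested, 16.6% rose and 14.8% fell in NIH-3T3, and 12.8% rose and 10.0% fell in MLg. The median over all genes tested was near 0 in both lines, as given above. The receptor genes Kdr and Flt4 and the Tek partner Tie1 were not tested, since Kdr reached 0.0128 FPKM at most in any library, Flt4 0.0184 FPKM and Tie1 0.0374 FPKM.

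Vegfd, a ligand of Flt4 in the table under its older symbol Figf, was the VEGF ligand with the highest FPKM in every control library. Figf had 28.8, 38.4 and 44.8 FPKM in NIH-3T3 SHHN, against 62.8, 57.1 and 66.9 FPKM in NIH-3T3 control. In MLg SHHN Figf had 71.7, 75.8 and 70.9 FPKM, against 164, 136 and 157 FPKM in MLg control. Figf fell in both lines without overlap, by 0.75 in NIH-3T3 and by 1.06 in MLg. The summed FPKM of Vegfa, Vegfb, Vegfc, Figf and Pgf was 136, 130 and 141 in NIH-3T3 SHHN, against 124, 127 and 127 in NIH-3T3 control. In MLg it was 154, 170 and 162 with SHHN, against 285, 256 and 259 without. The sum therefore lay lower with SHHN in every MLg library and slightly higher in every NIH-3T3 library. Pgf made up 16.9%, 7.39% and 7.35% of it in NIH-3T3 SHHN and at most 0.0454% in NIH-3T3 control. In MLg its share was 2.205% to 2.42% with SHHN and at most 0.112% without.

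Nrp2, the neuropilin partnered with Vegfc and semaphorins, moved opposite to Nrp1. Nrp2 averaged 29.0 ± 6.60 FPKM in NIH-3T3 SHHN and 52.2 ± 9.23 FPKM in NIH-3T3 control, and 37.3 ± 2.43 FPKM in MLg SHHN and 73.5 ± 6.11 FPKM in MLg control (SD, n = 3 each). It fell by 0.85 ± 0.17 in NIH-3T3 and by 0.97 ± 0.17 in MLg. The ratio of Nrp1 to Nrp2 FPKM was 8.34, 4.29 and 5.28 in NIH-3T3 SHHN, against 1.08, 0.881 and 0.943 in NIH-3T3 control. In MLg it was 3.42, 3.09 and 3.75 with SHHN, against 0.725, 1.02 and 1.21 without. In each line the lowest ratio with SHHN exceeded the highest without.

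**Figure D3:**
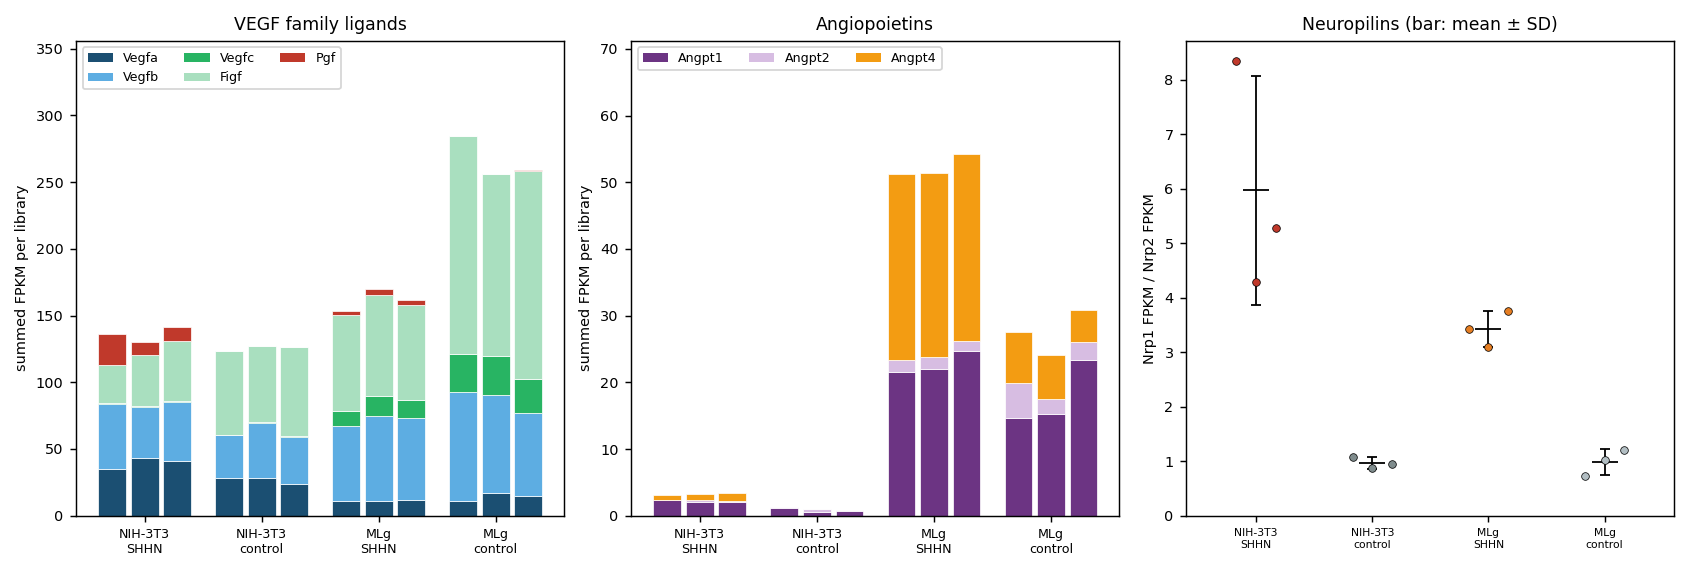
Left and middle, summed FPKM of the VEGF family ligands and of the angiopoietins in each library (one bar per library, stacked by gene, linear axis from 0). Right, the ratio of Nrp1 to Nrp2 FPKM per library with the group mean and SD. The ligand sum is 154 to 170 FPKM in MLg SHHN and 256 to 285 FPKM in MLg control, and the neuropilin ratio is 3.09 or more in every SHHN library and 1.21 or less in every control library.

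Angpt4, another ligand of Tek, rose in both lines. Angpt4 had 27.8, 27.6 and 28.03 FPKM in MLg SHHN, against 7.61, 6.53 and 4.72 FPKM in MLg control, a log2 fold change of 2.08 ± 0.17. In NIH-3T3 SHHN Angpt4 had 0.746, 0.980 and 1.19 FPKM, against 0.0425, 0 and 0 FPKM in NIH-3T3 control, a log2 fold change of 1.51 ± 0.17. The summed angiopoietin FPKM was 51.2, 51.4 and 54.3 in MLg SHHN, against 27.5, 24.1 and 30.8 in MLg control. Angpt4 made up 51.6% to 54.3% of that sum with SHHN and 15.3% to 27.7% without. The share of Angpt2 in MLg was 2.93% to 3.57% with SHHN and 8.96% to 19.3% without.

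The semaphorins, which compete with VEGF for neuropilins, were tested for 4 genes, of which 4 fell in NIH-3T3 and 2 in MLg. Of all genes tested, 14.8% fell in NIH-3T3 and 10.0% in MLg. These semaphorins are among the partners already counted above. Sema3a fell by 1.78 ± 0.24 on the log2 scale in NIH-3T3 and by 0.84 ± 0.24 in MLg, Sema3f by 0.88 ± 0.14 in NIH-3T3 and 0.67 ± 0.14 in MLg, and Sema3b by 1.27 ± 0.17 in NIH-3T3. The call of Sema3a in MLg was lost without SHHN replicate 1 (-0.78) or 2 (-0.82) or control replicate 2 (-0.83) or 3 (-0.59) of that line, and with no filter. Plxna2, a semaphorin receptor named after its values were seen, was the other partner that rose in MLg, by 0.66. The count of 2 that rose was 1 with the replicate number as a block and without any single MLg library.

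**Figure D4:**
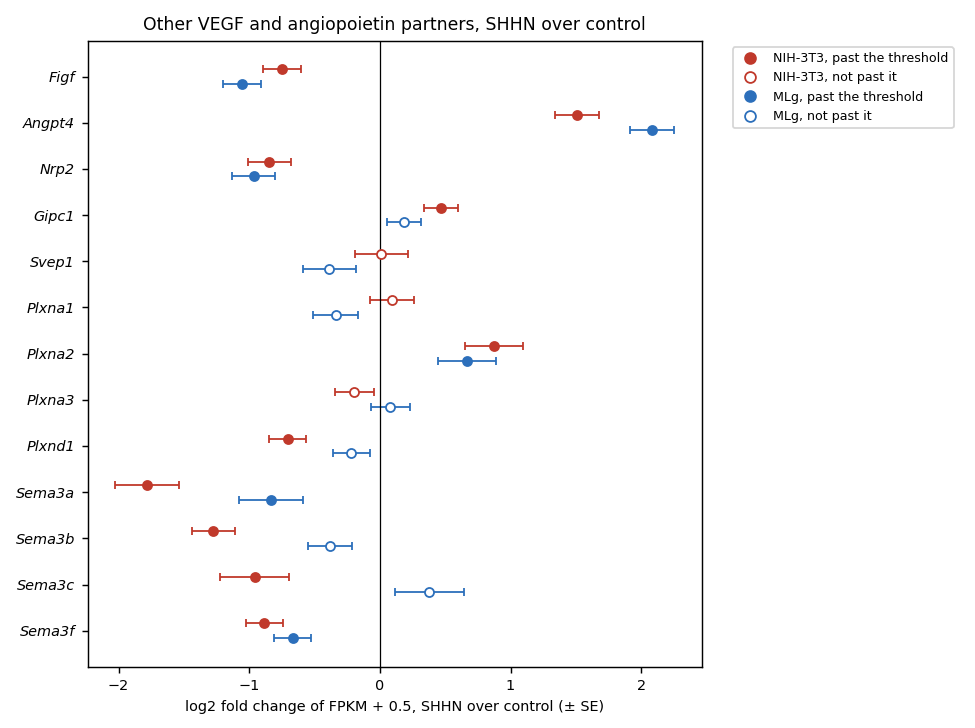
Log2 fold change of FPKM + 0.5, SHHN over control, with SE bars for the 13 tested partners in NIH-3T3 (red) and MLg (blue), filled where the threshold of 0.05 on limma's adjusted p was passed. Angpt4 lies right of 0 and Figf, Nrp2, Sema3a and Sema3f left of 0 in both lines.

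Sox18 did not rise with its own group. Sox17 was listed at 0 in all 12 libraries, and Sox7 in 11 of them with 0.0169 FPKM in the other. Of 17 SoxF and endothelial transcription factor genes, 9 were tested. In NIH-3T3 6 rose and 2 fell (median 0.86), where 16.6% of all genes tested rose and 14.8% fell. In MLg 3 rose and 0 fell (median 0.40), where 12.8% of all genes tested rose and 10.0% fell. In MLg 1 fell without SHHN replicate 2. Nr2f2, the venous and lymphatic regulator COUP-TFII, averaged 218 ± 9.87 FPKM in NIH-3T3 SHHN and 67.1 ± 11.3 FPKM in NIH-3T3 control, and 142 ± 8.93 FPKM in MLg SHHN and 48.2 ± 1.76 FPKM in MLg control (SD, n = 3 each). Its log2 fold change was 1.70 ± 0.12 in NIH-3T3 and 1.55 ± 0.12 in MLg. Mef2c, a factor of muscle and endothelium, had log2 fold changes of 1.21 ± 0.22 (NIH-3T3) and 1.17 ± 0.22 (MLg), and Gata2 of 0.46 ± 0.11 (NIH-3T3) and 0.49 ± 0.11 (MLg). Ets1 rose in NIH-3T3 by 0.86 ± 0.14, where Rbpj, the DNA-binding partner of Notch, fell by 1.76 ± 0.16 and Ets2 by 1.40 ± 0.14.

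The cell identity of the lines was read from marker lists. Beside the counts in this paragraph and the next, 16.6% of all genes tested rose and 14.8% fell in NIH-3T3. In MLg 12.8% rose and 10.0% fell. All 10 fibroblast markers averaged at least 1 FPKM in NIH-3T3, and 9 of 10 did in MLg, where Thy1 was under 0.5 FPKM in every library. Of 15 endothelial markers, 5 were tested, and only Cdh5 (VE-cadherin, the adhesion protein of endothelial junctions) passed, in both lines. The count that rose in NIH-3T3 was 2 without NIH-3T3 control replicate 2 or without MLg control replicate 1, and in MLg 1 marker fell without any of 4 of its libraries. Cdh5 had 2.10, 13.9 and 11.1 FPKM in NIH-3T3 SHHN, against 0.103, 0.0507 and 0.0782 FPKM in NIH-3T3 control. In MLg SHHN Cdh5 had 5.41, 4.63 and 5.03 FPKM, against 0, 0 and 0.0369 FPKM in MLg control. Every SHHN library lay above every control library, and NIH-3T3 SHHN replicate 1 was again apart. The log2 fold change of Cdh5 was 3.72 ± 0.44 in NIH-3T3 and 4.49 without that library, and it was 3.43 ± 0.44 in MLg. Cdh5 passed the filter only through the SHHN libraries, where it is high, so no p is given.

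Of the other endothelial markers, 4 were tested and did not pass in either line. Vwf, not tested, had 0.480 to 0.544 FPKM in MLg SHHN, against 0.0788 to 0.345 FPKM in MLg control. Emcn and Robo4 were listed at 0 in all 12 libraries, Pecam1 reached 0.137 FPKM at most, and Cd34, a marker that fibroblasts can carry too, averaged 201 ± 54.3 FPKM in NIH-3T3 SHHN and 277 ± 19.0 FPKM in NIH-3T3 control (SD, n = 3 each). The summed FPKM of the 13 endothelial markers other than Cd34 and Cdh5 was 4.48 to 5.44 in NIH-3T3 SHHN and 2.87 to 4.83 in NIH-3T3 control. In MLg it was 2.65 to 2.74 with SHHN and 2.96 to 4.12 without. Of 7 mural markers 3 were tested, and Cspg4 (NG2) rose in both lines, by 1.38 ± 0.21 in NIH-3T3 and 2.43 ± 0.21 in MLg. Of the fibroblast markers 1 rose and 7 fell in NIH-3T3 and 0 rose and 2 fell in MLg, Pdgfra by 1.28 ± 0.16 and Pdgfrb by 0.38 ± 0.12, the second lost without any of 5 of the 6 MLg libraries. Their summed FPKM ranged from 9368 to 11087 in NIH-3T3 SHHN and from 14003 to 15730 in NIH-3T3 control. The total FPKM of a library differed too, from 494531 to 542742 in NIH-3T3 SHHN and from 545656 to 659862 in NIH-3T3 control. With quantile normalization 3 in place of 7 fibroblast markers fell in NIH-3T3. Of 5 leukocyte markers 3 were tested, and 2 (Cd14, by 0.53 ± 0.17, and Lyz2, by 0.75 ± 0.24) rose in NIH-3T3 and 0 in MLg. Neither passed without NIH-3T3 SHHN replicate 2 or without NIH-3T3 control replicate 2. None of 5 epithelial markers passed the filter. The part of any of these markers in the changes of the 10 genes was not tested.

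**Figure D5:**
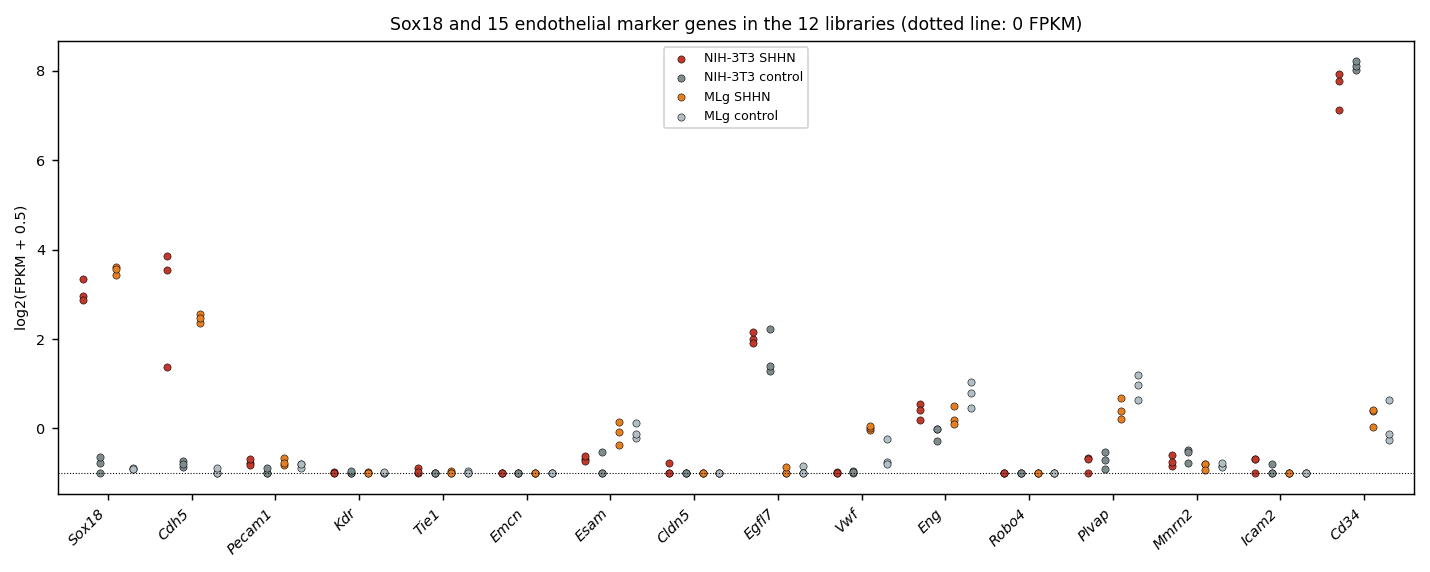
Log2(FPKM + 0.5) of Sox18 and 15 endothelial marker genes in each of the 12 libraries, coloured by group, with a dotted line at 0 FPKM. Sox18 and Cdh5 are high in SHHN libraries and near the line in control libraries, while Kdr, Tie1, Emcn and Robo4 lie on or near the line in all groups.

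Angiogenesis inhibitors were read as a list of 14 genes, all tested. In NIH-3T3 1 rose and 7 fell (median -0.59), where 16.6% of all genes tested rose and 14.8% fell. In MLg 1 rose and 9 fell (median -0.60), where 12.8% of all genes tested rose and 10.0% fell. The count that rose in MLg was 2 with the replicate number as a block, with no filter, in the 6 MLg libraries alone or without NIH-3T3 SHHN replicate 1. With the block 8 fell in MLg, since Adamts1, a metalloproteinase that binds VEGF (-0.50 ± 0.15), no longer passed (limma, adjusted p = 0.0529). Adamts1 also did not pass without any 1 of 5 of the 6 MLg libraries, the exception being control replicate 1, and 6 to 8 genes fell in MLg when 1 MLg library was left out. Thbs1 (thrombospondin 1) averaged 7.53 ± 1.16 FPKM in NIH-3T3 SHHN and 60.4 ± 11.5 FPKM in NIH-3T3 control, where it fell by 2.91 ± 0.22 on the log2 scale. In MLg Thbs1 averaged 192 ± 24.1 FPKM with SHHN and 437 ± 134 FPKM without. Timp3, a metalloproteinase inhibitor that also blocks VEGF binding to its receptor, went the other way in MLg, with a log2 fold change of 1.96 ± 0.20, and Vash1 did so in NIH-3T3, with 1.00 ± 0.14. The list holds Sema3a and Sema3f, which the partner list holds too. Angptl4, named after its values were seen, had 4.56, 51.7 and 44.3 FPKM in NIH-3T3 SHHN, against 213, 237 and 183 FPKM in NIH-3T3 control.

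Vegfa is a known target of the oxygen sensor pathway, so 20 hypoxia response genes were read beside it, of which 18 were tested. In NIH-3T3 7 rose and 4 fell (median 0.08), where 16.6% of all genes tested rose and 14.8% fell. In MLg 1 rose and 2 fell (median -0.08), where 12.8% of all genes tested rose and 10.0% fell. Adm (adrenomedullin, a vasodilator peptide) averaged 4.29 ± 2.03 FPKM in NIH-3T3 SHHN and 26.8 ± 5.99 FPKM in NIH-3T3 control, and 24.7 ± 4.81 FPKM in MLg SHHN and 85.2 ± 15.9 FPKM in MLg control (SD, n = 3 each). It fell in both lines, by 2.59 ± 0.29 on the log2 scale in NIH-3T3 and 1.77 ± 0.29 in MLg. Ndrg1 fell by 1.35 ± 0.14 in NIH-3T3 and 0.67 ± 0.14 in MLg. The glycolytic regulator Pfkfb3 rose in both lines, by 1.32 ± 0.17 in NIH-3T3 and 0.67 ± 0.17 in MLg, and Ankrd37 rose in NIH-3T3 by 1.49 ± 0.20. Whether the oxygen sensor pathway had a part in the change of Vegfa was not tested. The MLg call of Pfkfb3 was lost without MLg control replicate 2 (0.62). The 4 falls in NIH-3T3 became 2 without SHHN replicate 2 or without control replicate 1 or 3.

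Over the 12 libraries, the genes whose log2(FPKM + 0.5) tracked each of the 10 most closely were ranked by Pearson correlation among genes with a mean of at least 1 FPKM. For Sox18 they were Lrig3 (0.995), Ptch1 (0.995), the Hedgehog receptor, and Bcl2 (0.992). For Pgf they were Wbscr17 (0.983), Mfap3l (0.978) and Cdca7 (0.977), and for Nrp1 Gfpt2 (0.983), Ets1 (0.977) and Kif2c (0.963). Vegfc was followed by Cdkn1c, Entpd1 and Bmp4 (0.995 to 0.996) and Tek by Actr3b, Radil and Scara5 (0.986 to 0.988). For Vegfa the nearest gene was Tcf7l1 (0.979), for Vegfb Mif (0.983), for Angpt1 Gucy1a2 (0.993), for Angpt2 Lgals3bp (0.983) and for Flt1 Pappa (0.984). Among the 10 genes themselves, Pgf and Nrp1 correlated at 0.92, Pgf and Sox18 at 0.92 and Nrp1 and Sox18 at 0.89, while Vegfc and Angpt2 correlated at 0.96 and Vegfc and Tek at -0.98. These values describe 4 groups of 3 libraries, whose group differences carry them.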

How the data were processed

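The libraries, 3 in each of 4 groups, were made from RNA of 2 mouse fibroblast lines. The deposited table holds FPKM, 1 value per gene and library, made by the authors with bcl2fastq, TopHat2 2.0.12 and Cufflinks 2.2.1 on mm10, per the submitters' processing notes. The annotation and any scaling between libraries are not given in the sources used here. Of the entries, 24346 had values and 1 had none and was left out. Counts were not recovered (16.5% to 24.9% of low values per library lay within 0.1 of a whole multiple of the smallest value, where arbitrary values give 20%), so the depth is unknown and no counting interval is given.

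A gene was tested where 3 or more libraries reached 0.5 FPKM, which 12379 genes did. Their log2(FPKM + 0.5) was fitted in limma 3.58.1 (R 4.3.3) by 4 group means, using a variance trend. Two-sided p-values were adjusted over all genes tested in a contrast (Benjamini-Hochberg), with a threshold of 0.05. The fit was tested on simulated data. SHHN was set against control in NIH-3T3 and in MLg, these effects were subtracted (NIH-3T3 minus MLg), and the lines were compared in controls and under SHHN. Motifs were counted in RefSeq promoter windows.

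The 10 genes, the gene lists and the tests were chosen with earlier results of these data known. Named genes were the 10, Gli1 and Ptch1, up to 4 genes per list and SHHN contrast with the smallest p past the threshold, and the 3 genes that correlated best with each of the 10. Genes outside this rule are list members named for a level near 0 or for a count of 5 or fewer, and Angptl4.

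Replicate numbers were checked as pairs. After removal of group means, same-numbered SHHN and control libraries correlated across genes at 0.132, 0.157 and 0.241 in MLg, above every pair of unequal numbers. A fit with the number as a block was therefore set beside its results. The labels do not say that equal numbers mark a shared culture or day. Removal of the means of 3 libraries ties these correlations to each other, so they cannot establish pairing. In NIH-3T3 same-numbered libraries correlated at -0.0007, -0.10 and 0.03 and did not stand above the pairs of unequal numbers. The block fit still joined libraries by number in both lines.

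Alternatives were a pseudocount of 0.1 or 1 FPKM, filtering at 1 FPKM or not at all, quantile normalization, scaling by median ratios, the 6 libraries of a line alone, robust variance estimates, the replicate block and leaving out each library.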

Additional observations from a re-analysis of the deposited data

Results flagged for a closer look

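For Vegfa and Vegfc the difference of the SHHN responses between the lines passed the threshold (limma, NIH-3T3 minus MLg). Of all genes tested 13.4% passed that contrast (7.48% higher and 5.95% lower). The difference is made of the responses that were known when the genes were listed, so its p-values are a description. Pgf rose more in NIH-3T3, with a difference of 1.91 ± 0.38 on the log2 scale. It entered the fit only through SHHN libraries, where it is high, so no p is given for it. Vegfa differed by 0.84 ± 0.21 (adjusted p = 0.0197), with higher values than control in 3 of 3 NIH-3T3 SHHN libraries and overlapping values in MLg. That call was lost without NIH-3T3 SHHN replicate 2 (adjusted p = 0.0554), NIH-3T3 control replicate 3 (adjusted p = 0.0507) or MLg control replicate 2 (adjusted p = 0.0518). Vegfc differed by 1.16 ± 0.27 (adjusted p = 0.0122), with a fall in 3 of 3 MLg SHHN libraries. The difference for Flt1 was -1.27 ± 0.20, with lower values than control in 3 of 3 NIH-3T3 SHHN libraries and a level at or near 0 in MLg. Flt1 entered the fit only through NIH-3T3 control, where it is high, so no p is given.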

How the results depend on the processing

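Of the values of the 10 genes over 21 alternative fits and 5 contrasts (995 where a fit applied), 940 kept their direction and their side of the threshold, 31 newly passed, 21 no longer passed and 3 changed sign. The changes of sign were Angpt2 in NIH-3T3 (0.11 without SHHN replicate 1 or control replicate 2, in a range from -0.22 to 0.11 over left-out libraries) and Flt1 in MLg (0.0081 without control replicate 3, in a range from -0.018 to 0.0081). Among other named genes, Timp2 in NIH-3T3 (0.0041) and Vim in MLg (0.012) changed sign with quantile normalization and Lum in MLg (0.10) without control replicate 3, in a range from -0.21 to 0.10. None of these 6 values passed in either fit. Fibroblast markers that fell in NIH-3T3 were 3 in place of 7 with quantile normalization.

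Counts of the 10 genes moved as follows. With a filter of 1 FPKM, which leaves Flt1 untested, 0 in place of 1 fell in NIH-3T3 and 0 in place of 1 had a lower response in NIH-3T3 than in MLg. That last count was 2 with a pseudocount of 0.1 FPKM, quantile normalization or median-ratio scaling. In MLg 2 in place of 1 fell with a pseudocount of 1 FPKM, quantile normalization, median-ratio scaling or the replicate block. The block otherwise changed only the call of the Nrp1 difference among the 10 genes. Leaving out 1 library at a time gave 4 to 6 genes that rose (5 in the full set) and 1 that fell in NIH-3T3, and 4 to 5 that rose and 1 to 2 that fell in MLg. It gave 2 to 5 genes with a higher response in NIH-3T3 (3 in the full set) and 1 to 3 with a lower one. Genes lower in NIH-3T3 than in MLg were 4 to 5 in controls and 3 to 5 under SHHN. Calls over all 12379 genes tested moved too in those fits. They numbered 3049 to 4275 for SHHN in NIH-3T3 (3885 in the full set) and 2008 to 3262 in MLg (2818). For the difference they were 1093 to 2345 (1662), for the lines in controls 5406 to 6357 (6205) and under SHHN 4822 to 6320 (5799). Nothing is read from the counts of the 10 genes, which include Pgf, Sox18, Flt1 and Angpt2. Beyond these settings the cause of the moves was not tested. The unknown depth limits the reading of genes near 0, such as Flt1 in MLg or Pgf and Sox18 in controls.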

Other observations

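NIH-3T3 SHHN replicate 1 differed from replicates 2 and 3 of its group in several vascular genes, which were picked out after their values were seen. Pgf (23.1 FPKM, against 9.60 and 10.4 FPKM), Cspg4 (61.1 FPKM, against 40.1 and 31.2 FPKM) and the ratio of Nrp1 to Nrp2 (8.34, against 4.29 and 5.28) were highest there. Tek (4.54 FPKM, against 11.3 and 10.5 FPKM), Cdh5 (2.10 FPKM, against 13.9 and 11.1 FPKM), Figf (28.8 FPKM, against 38.4 and 44.8 FPKM), Angptl4 (4.56 FPKM, against 51.7 and 44.3 FPKM) and Cd34 (140 FPKM, against 217 and 245 FPKM) were lowest there. Sox18 (9.59 FPKM, against 7.30 and 6.84 FPKM) and Nrp1 (186 FPKM, against 152 and 154 FPKM) were also highest in that library. With 3 libraries a group, no test of a single library was made.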
